A study of Xenopus tropicalis with 30 samples.

Results

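Convergent poly(A) site pairs are places in the genome where transcripts of opposite strands end close to each other. A plus-strand and a minus-strand poly(A) site of the western clawed frog, *Xenopus tropicalis*, formed such a pair when their listed positions lay within 1000 bases on one of the 10 chromosomes, in either order, and each plus-strand site was joined to its nearest minus-strand site. The rule used positions and strands only. It gave 4586 pairs, made of 4586 plus-strand and 3328 minus-strand sites, which were 7914 of the 89501 poly(A) sites on the chromosomes and of the 98277 in the table. The sites came from WTTS-seq, which reads the 3′ ends of polyadenylated RNA, in whole bodies of 6 adult males and 6 adult females, 1 library per animal. The start-site table of the same study, made by WTSS-seq, which reads 5′ ends, was used for the starts upstream, and per the series design it came from the same 6 males and 6 females. The labels name no strain, age or treatment for either sex.

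A poly(A) site is where a pre-mRNA is cut and a poly(A) tail is added, as directed by a hexamer signal upstream of the cut and by further elements around it. RNA polymerase II transcribes past that point before it is released, so neighbouring genes that point at each other can be transcribed over the same bases from both strands. When the cut lies beyond the end of the opposite transcript, the mature RNAs share complementary 3′ sequence and are called natural antisense transcripts. Many genes have several poly(A) sites, and the choice among them sets how far the 3′ end reaches.

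The poly(A) table held 2304469 to 6624765 counts per library. The tables name no genes, so pairs are given here by chromosome and position, and they are not placed in exons, introns or UTRs. Positions count from 1 on the assembly of the tables, whose build is not given in the sources used here. Levels are counts per 1000000 counts (CPM) after TMM scaling of the libraries, and a site was called when the adjusted p of edgeR's quasi-likelihood test, taken over all sites of the table, was under 0.05. The TMM factors were 0.559 to 0.771 in males and 1.38 to 1.72 in females. With library totals alone, the log2 differences of male over female were shifted by -1.23, so all directions of single sites below are relative to that choice. In whole bodies, fewer cells of a type and less RNA per cell cannot be told apart.

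Nearest poly(A) sites of opposite strands were most numerous per 100 bases at the shortest distances. The rule chose pairs by this same distance, and no expected spacing was set beside it, so crowding of the strands was not tested. The plus-strand site lay at or beyond the minus-strand site, so that the ends overlapped, in 2338 pairs or 51.0%. The remaining 2248 pairs faced each other across a gap. The overlap had a median of 336 bases with quartiles of 141 and 613, and the gap a median of 382 bases with quartiles of 144 and 671. Of all pairs, 152 lay 0 to 10 bases apart and 874 lay 0 to 100 bases apart, against 290 at 901 to 1000 bases, so the number per 100 bases fell with distance. At 0 to 100 bases the 2 orders were about equally common, with 441 overlapping pairs. Above 100 and up to 500 bases the overlapping order was the more frequent one. Above 500 and up to 1000 bases it was the facing order, with 794 overlapping pairs of 1669. The facing order also led beyond the limit, with 1558 facing and 1149 overlapping nearest pairs at 1001 to 2000 bases.

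**Figure D1:**
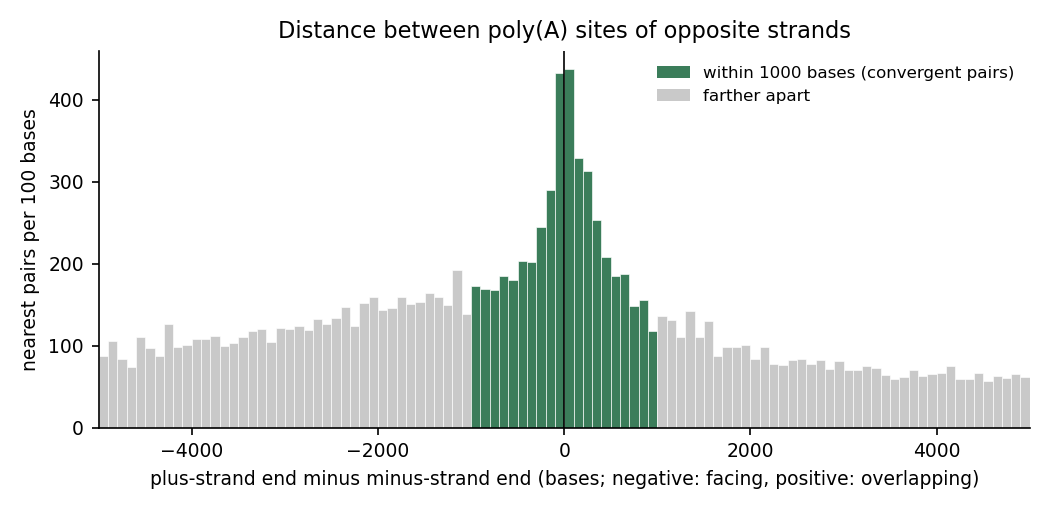
Number of plus-strand sites per 100 bases of signed distance to their nearest minus-strand site, with facing pairs left of 0 and overlapping pairs right of 0. Green bars are the convergent pairs, with their peak at 0, and grey bars the nearest pairs farther apart.

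The listed position is 1 point in a cluster of counts, and the clusters differed between the strands. Clusters of paired plus-strand sites had a median width of 121 bases with quartiles of 62 and 259, against 25 bases with quartiles of 8 and 51.2 for paired minus-strand sites. The extra width lay downstream of the listed position. The median reach from the position to the downstream bound was 84 bases on the plus strand and 11 on the minus strand. It was 378 bases for the 703 paired plus-strand sites with 500 or more counts, and 33 bases for the 391 such minus-strand sites. The same strand difference held for all chromosome sites, with medians of 122 and 25 bases, and it ran the other way in the start-site table, with 78 bases on the plus and 142 on the minus strand. Judged by the far bounds of the clusters instead of the listed positions, 2927 pairs or 63.8% overlapped, by a median of 422 bases. The clusters themselves shared bases in 893 pairs or 19.5%. What part the strand difference in width had in the overlap lengths was not tested.

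**Figure D2:**
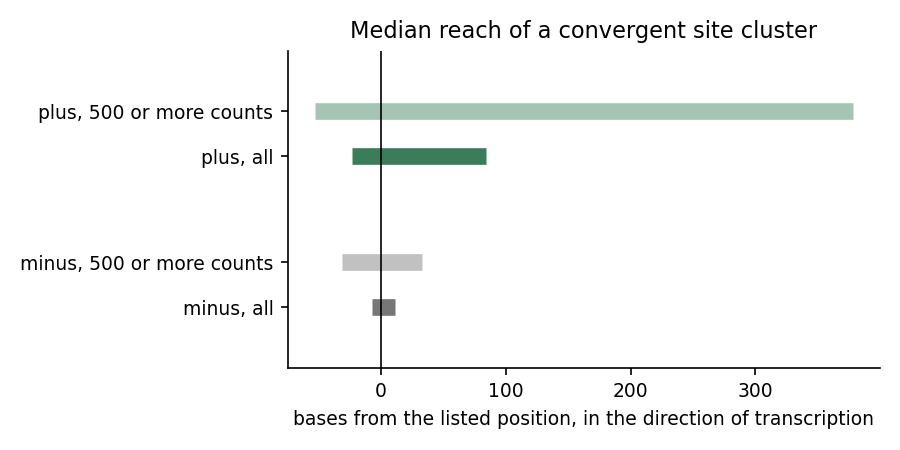
Median reach of a paired site's cluster upstream (left of 0) and downstream (right of 0) of its listed position, in bases, by strand and for sites with 500 or more counts. Plus-strand clusters reach 84 bases downstream, and 378 bases at the higher level, against 11 and 33 bases on the minus strand.

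Pairs were found on every chromosome. They took in 11.5% of the plus-strand and 6.73% of the minus-strand sites. These 2 shares are not alike in kind. Every plus-strand site within the limit was a member, but a minus-strand site only when it was the nearest to a plus-strand site. The share of plus-strand sites ran between 8.63% on chromosome 6 and 13.7% on chromosome 4. The share of overlapping pairs ran between 45.4% on chromosome 9 and 54.3% on chromosome 2. Strong sites were paired more often than weak ones. On the plus strand, 16.3% of the sites with 5000 or more counts over the 12 animals were in a pair, against 10.5% of those under 50 counts, and on the minus strand the shares were 8.53% and 6.24%. Some minus-strand sites served several plus-strand sites, so the pairs are not independent of each other: 2496 had 1 plus-strand partner, 534 had 2 and 298 had 3 or more, up to 9. In 3246 pairs or 70.8%, each site was the nearest of the other.

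The 2 sides of a pair usually differed in level. The median level over the 12 animals was 0.81 CPM on the plus side and 0.817 CPM on the minus side, but the stronger side had a median of 2.23 CPM and the weaker side of 0.339 CPM. The stronger side exceeded the weaker one by a median of 6.45-fold. In 1853 pairs or 40.4% the difference was over 10-fold, and in 923 pairs or 20.1% it was under 2-fold. The plus side was the stronger one in 2296 pairs or 50.1%. The level of one side said little about the other, with a Spearman correlation across pairs of 0.0603 (n = 4586). It was 0.061 for the 14255 nearest pairs at 1001 to 10000 bases and 0.0186 for the 21190 pairs farther apart. These pairs share libraries and partners, and the values are descriptions.

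Both sides were rarely strong at once. The weaker side reached 1 CPM in 954 pairs or 20.8%, against 19.8% of the nearest pairs at 1001 to 10000 bases, and 10 CPM in 100 pairs. Where the sites lay 0 to 100 bases apart, the weaker side reached 1 CPM in 26.2% of the pairs. In the 893 pairs whose clusters shared bases, it did so in 32.6%. There the stronger side exceeded the weaker by a median of 9.03-fold, and the plus side was the stronger one in 58.8%. Clusters were wider at higher counts, above all on the plus strand, so choosing pairs whose clusters share bases also chose strong sites, and these 3 values describe that choice as well.

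The most abundant site of all pairs stood opposite a weak one. The plus-strand site at 49713392 on chromosome 8 had 207452 counts in males and 24768 in females, which was 12.3% of the counts of an average male in paired sites and 0.851% of those of an average female. Its minus-strand partner at 49713285, overlapping by 107 bases, had 59 counts in males and 0 in females. The strongest minus-strand site, at 61317803 on chromosome 7, had 14266 counts in males and 23979 in females. Its partner 3 bases away, at 61317806, had 56 and 21. In each case the opposite strand held a listed site at far under 1% of the level of its partner.

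The pairs named for the strongest weaker side were all overlapping, which did not hold beyond this short list. Among all pairs, the weaker side reached 10 CPM in 49 overlapping and 51 facing pairs. On chromosome 8, the plus-strand site at 8611850 and the minus-strand site at 8611592, 258 bases in overlap, averaged 115 and 109 CPM over the 12 animals. On chromosome 1, the sites at 154337550 and 154337253 averaged 202 and 99.5 CPM with 297 bases in overlap. The others were the sites at 61866137 and 61866057 on chromosome 8 (67.5 and 65.4 CPM), at 5262573 and 5262260 on chromosome 6 (68.6 and 60.9 CPM) and at 178686844 and 178686707 on chromosome 1 (211 and 57 CPM). The first plus-strand site spanned 26.1 to 99 CPM in males and 106 to 281 CPM in females, with no overlap between the sexes, and its minus-strand partner spanned 56.6 to 120 CPM in males and 82.7 to 194 CPM in females.

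Among pairs with both sides at 10 CPM or more, the longest overlap was 859 bases, between the sites at 456279 and 455420 on chromosome 4, which averaged 29.2 and 36.5 CPM. An overlap of 855 bases joined the sites at 12146710 and 12145855 on chromosome 8, and 843 bases those at 106586399 and 106585556 on the same chromosome. In each of these 3 pairs 1 side owed its mean to female 4: the minus-strand site at 455420 had 334 CPM there against 0.857 to 34.9 CPM in the other females, the plus-strand site at 12146710 had 220 CPM, and the minus-strand site at 106585556 had 389 CPM. At the short end, the sites of both strands shared the position 119407459 on chromosome 4 and averaged 15.4 CPM on the plus and 18.2 CPM on the minus strand. On chromosome 1 the sites at 130584946 and 130584947 averaged 11.1 and 17.4 CPM, and on chromosome 3 those at 68239566 and 68239567 averaged 38.5 and 27.7 CPM. With these, 2 further pairs were 1 base apart: those at 122449514 and 122449515 on chromosome 4 averaged 33.3 and 19.6 CPM, and those at 112912165 and 112912166 on chromosome 7 averaged 67.6 and 16.7 CPM.

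Among pairs with both sides tested and at 10 CPM or more, those nearest to the limit from inside were at 98703511 and 98704446 on chromosome 8 (935 bases, 99.1 and 21 CPM), at 120272273 and 120273202 on chromosome 3 (929 bases, 14.1 and 54.1 CPM) and at 7102772 and 7103684 on chromosome 10 (912 bases, 78.3 and 20.3 CPM). The nearest from outside were at 7951449 and 7952484 on chromosome 8 (1035 bases, 244 and 14.2 CPM), at 47696812 and 47697888 on chromosome 8 (1076 bases, 74.9 and 23.1 CPM) and at 810717 and 811799 on chromosome 7 (1082 bases, 20.3 and 40 CPM).

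Many pairs never reached 1 CPM at both ends in the same animal, in no larger share than pairs farther apart. Each side reached 1 CPM per library total in at least 1 animal in 3284 pairs, and both did so in the same animal in 2244. The remaining 1040 pairs, or 31.7%, had their 2 ends at that level in different animals only, against 34.5% of the nearest pairs at 1001 to 10000 bases and 36.9% of those farther apart. Both ends reached it together in all 12 animals in 34 pairs, in males only in 641, in females only in 1022, and in both sexes in 581. On the TMM scale, a setting chosen after seeing the data, the order of the sexes turned, with 864 pairs in males only, 736 in females only and 654 in both, so these counts give no direction.

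Of the 2111 pairs with 20 or more counts on each side, 23 or 1.09% had counts in males alone on both sides and 82 or 3.88% in females alone. In 61 pairs or 2.89%, 1 side was counted in males alone and the other in females alone. Among the 6297 nearest pairs at 1001 to 10000 bases the 3 shares were 0.873%, 2.32% and 2.46%. Among the 9128 farther apart they were 1.08%, 1.37% and 2.49%. Pairs with both ends in females alone were thus the class that changed most with distance, and this difference was not tested.

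Males had a smaller share of their poly(A) counts in convergent pairs than females. The share of an animal's chromosome counts in paired sites had a lowest, median and highest value of 9.2%, 9.94% and 11.2% in males, against 11.3%, 12% and 14.8% in females. The sexes did not overlap. The means were 10.1% ± 0.725 in males and 12.4% ± 1.28 in females (SD, n = 6 each), a difference of -2.38 percentage points in an exact two-sided permutation test (p = 0.00216, the smallest that 6 against 6 animals can give). Without the highest paired site of each strand, a setting chosen after seeing the data, the difference was -3.4 points (exact p = 0.00216). For pairs within 500 bases, the means were 7.76% in males and 9.43% in females, a difference of -1.66 points (exact p = 0.0108). The sexes then overlapped, with a highest male of 8.96% and a lowest female of 8.37%. For pairs within 2000 bases, the means were 14.4% and 18.5% without overlap, a difference of -4.13 points (exact p = 0.00216). The difference thus grew with the window and was not particular to pairs within the limit used here.

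Within the paired sites, males had the larger share at overlapping ends. A site that belonged to both an overlapping and a facing pair was counted as overlapping. Overlapping pairs held 62.8%, 69.6% and 74.5% of the counts in paired sites (lowest, median and highest animal) in males, against 60.5%, 61.3% and 63.2% in females. The lowest male lay within the female range. The means were 69.2% ± 4.06 in males and 61.5% ± 1.03 in females (SD, n = 6 each), a difference of 7.69 points (exact two-sided permutation p = 0.00433). Much of it lay in 1 site, the plus-strand site at 49713392 on chromosome 8. Its share of the counts in paired sites averaged 12.3% in males and 0.851% in females. The highest minus-strand site held 0.84% and 0.998%. Without the highest paired site of each strand, the shares were 64.7% ± 2.92 in males and 60.8% ± 1.03 in females, and the difference was 3.86 points (exact p = 0.0195). It was 2.48 points (exact p = 0.00649) without the 100 highest sites of the table.

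A comparison that held the minus-strand site fixed gave no difference that passed. There were 435 minus-strand sites with plus-strand partners on both sides, and 255 of these had partners at a summed mean of 5 CPM or more. The plus-strand counts at the overlapping partners, averaged over these sites, were 59.3% ± 1.15 in males and 58.4% ± 1.57 in females (SD, n = 6 each). The difference of 0.892 points did not pass (exact two-sided permutation p = 0.284), which does not show that the shares were alike. This comparison was chosen after seeing the data. It also used fewer sites, plus-strand counts alone and an average over sites instead of a share of all counts. Which of these changes the smaller difference goes with was not tested.

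The share of pairs with both ends at 1 CPM or more per library total was 9.95% ± 1.45 in males and 12.4% ± 3.98 in females (SD, n = 6 each), with a difference of -2.42 points (exact two-sided permutation p = 0.186). Female 4 stood apart at 20% of the pairs. The difference was -0.909 points without female 4 (exact p = 0.353) and -3.25 points without female 6 (exact p = 0.026). On the TMM scale the sign turned, to 2.2 points (exact p = 0.197), so no direction can be given. At 5 CPM per library total the shares were 2.75% ± 0.428 in males and 4.43% ± 1.15 in females, with a difference of -1.68 points (exact p = 0.00433).

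**Figure D3:**
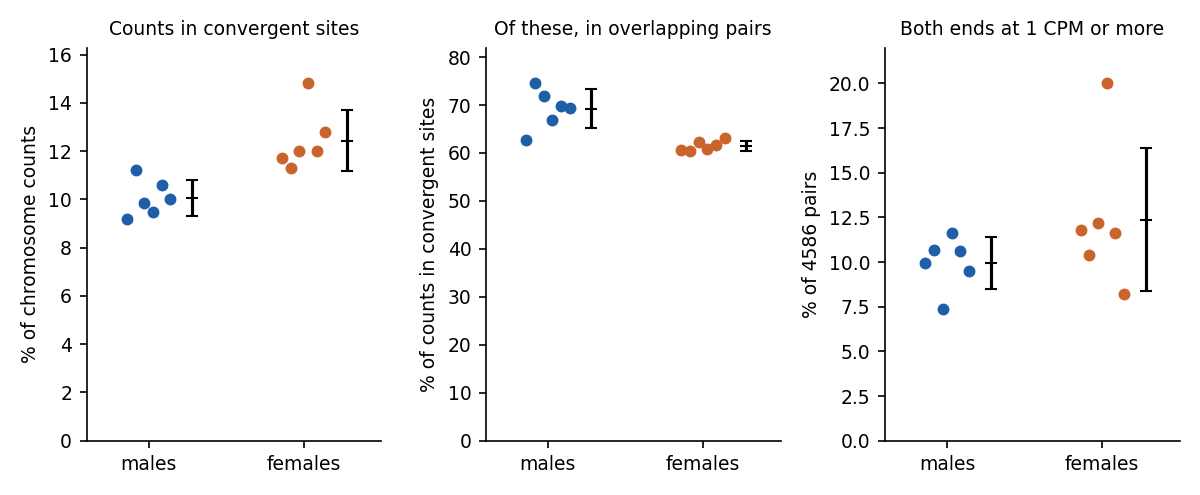
Shares per animal in percent: counts of paired sites among chromosome counts, counts at overlapping pairs among those, and pairs with both ends at 1 CPM or more per library total. Points are animals and bars the mean and SD of 6 males and 6 females, and the first panel shows all males at or under 11.2% and all females at or above 11.3%.

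Of the 7914 paired sites, 1689 or 21.3% had enough counts to be tested for a sex difference. Sites pass that filter through either sex, so a site that passed only where it is high had to differ, and the tested sites do not stand for all members. Of those tested, 361 or 21.4% were higher in males and 468 or 27.7% were higher in females, against 25.8% and 24.9% of all 16429 sites tested in the table. Of the other chromosome sites, 26.1% were called in the male direction and 24.6% in the female direction. The median log2 difference of the paired sites was -0.41, against -0.29 over all sites tested. The lean was larger on the plus strand, where males were higher at 217 of 1045 sites and females at 309. On the minus strand, males were higher at 144 of 644 and females at 159. The strands were not tested against each other. No shares by strand over all sites stand beside these counts, so the strand difference cannot be read as a trait of paired sites. With library totals alone, males were higher at 209 and females at 810, so the male share of the calls was 20.5% instead of 43.5%. Over all sites tested, that share was 26.2% instead of 50.9%, so the fall was not particular to paired sites. The called sites changed by a median of 3.3 on the log2 scale.

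Both sites were tested in 209 pairs, 4.56% of all, with 199 different minus-strand sites. Both ends were higher in males in 11 pairs or 5.26%, against 9.82% of the 1273 nearest pairs at any distance with both sites tested. Both were higher in females in 18 pairs or 8.61%, against 5.81% of the 1273. The ends were called in opposite directions in 24 pairs or 11.5%, against 14.5%. In 87 pairs 1 side was called, and in 69 neither. The 1273 include the convergent pairs, and no difference between these shares was tested. Without female 6, 19 of 255 pairs were higher in males at both ends, and without male 1, 30 of 265 were higher in females at both ends.

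The sex differences of the 2 ends went together only loosely. They had the same sign in 108 of the 209 pairs or 51.7%, and their log2 differences had a Pearson correlation of 0.198 and a Spearman correlation of 0.126 across pairs that share libraries and, in part, minus-strand sites. For comparison, the 1327 neighbouring sites on 1 strand within 1000 bases of each other had a Pearson correlation of 0.799, the same sign in 83.5% and opposite calls in 5 cases or 0.377%. The opposite-strand pairs at 1001 to 10000 bases had a Pearson correlation of 0.0788 (n = 603) and the same sign in 48.4%. At over 10000 bases the correlation was 0.0169 (n = 461).

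Within the convergent pairs the likeness was lower where the ends met. At 0 to 100 bases the Pearson correlation was -0.135 (n = 71) with the same sign in 38%. Where the clusters shared bases it was -0.129 (n = 100) with the same sign in 44%, and where they lay apart it was 0.409 (n = 109) with the same sign in 58.7%. The Spearman correlations of these 3 groups were -0.123, -0.0761 and 0.284, so the contrast was smaller by rank. By order, overlapping pairs had the same sign in 59.6% of 99 and opposite calls in 7, while facing pairs had the same sign in 44.5% of 110 and opposite calls in 17. By the far cluster bounds, which make 153 of the 209 pairs overlapping, the shares with the same sign were 52.9% and 48.2%. None of these splits was tested.

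**Figure D4:**
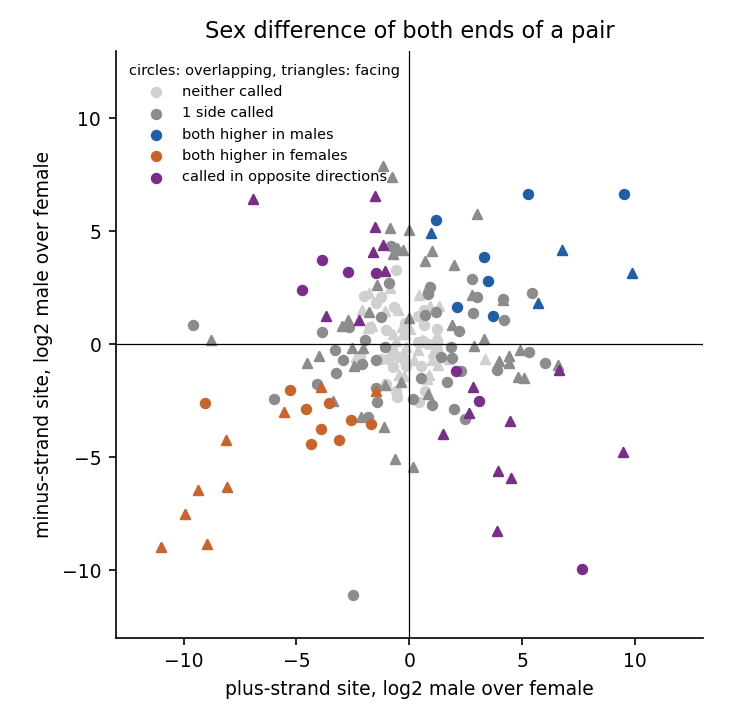
Log2 difference of male over female of the plus-strand site (x axis) and of the minus-strand site (y axis) for the 209 pairs with both sites tested, circles for overlapping and triangles for facing pairs, coloured by call. The 24 pairs called in opposite directions lie upper left and lower right, and values near 10 belong to sites with few or no counts in 1 sex, where the fitted value depends on the prior count.

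The 4 named pairs higher in males at both ends differed in how much the animals of a sex varied. On chromosome 8, the plus-strand site at 24843234 had a lowest, median and highest level of 6.44, 18.8 and 41.9 CPM in males and 0 counts in every female, at least 242-fold higher in males over the floor of 3 counts for the group (adjusted p of edgeR's test 4.79e-05). The minus-strand site at 24842938, overlapping by 296 bases, had 11.6, 33.4 and 54.7 CPM in males against 0, 0.144 and 1.29 CPM in females. Its log2 difference was 6.66 ± 1.04 (SE, adjusted p 0.000118). No male overlapped a female at either end.

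On chromosome 2, the plus-strand site at 44583099 and the minus-strand site at 44583543 faced each other over 444 bases. The plus-strand site had 17.1, 20.6 and 30.7 CPM in males against 0, 0.085 and 0.775 CPM in females, a log2 difference of 6.76 ± 0.98 (SE, adjusted p of edgeR's test 6.19e-05). The minus-strand site had 48.4, 123 and 175 CPM in males against 0, 5.47 and 18.9 CPM in females, a log2 difference of 4.16 ± 0.86 (SE, adjusted p 0.00104). The groups did not overlap at either site, and the plus strand made up 15.1% of the pair's counts in males and 2.34% in females.

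The facing sites at 21254708 and 21254928 on chromosome 6, 220 bases apart, varied more between males. The plus-strand site had 6.04, 23.1 and 147 CPM in males and 1 count in all females together, 1855-fold more than in females, between 332 and 73371 by counting error alone. The minus-strand site had 21.3, 33.9 and 71.9 CPM in males against 0, 3.24 and 10.3 CPM in females, a log2 difference of 3.14 ± 0.82 (SE, adjusted p of edgeR's test 0.00498), and its call was lost with library totals alone (adjusted p 0.0513). The sites at 130740112 and 130739499 on chromosome 6 overlapped by 613 bases. The plus-strand site there spanned 9.05 to 574 CPM in males and 0.612 to 71.2 CPM in females, the sexes overlapped, and its call (log2 3.31 ± 1.31, adjusted p 0.0457) was lost in 8 of the 12 fits without 1 animal (females 1, 2, 3, 5 and 6 and males 1, 2 and 5), where the highest adjusted p was 0.133. It was also lost with RLE size factors (adjusted p 0.0506) and with library totals alone (adjusted p 0.14).

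The 4 pairs with the largest fall at both ends in males all faced each other across more than 600 bases and lay near the low-numbered ends of chromosomes 9 and 6. On chromosome 9, the plus-strand site at 107554 had 0 counts in all males and 35.8, 58.7 and 83.4 CPM in females, and the minus-strand site at 108299 had 0 counts in all males and 8.41, 11.3 and 33.6 CPM in females. They were at least 259-fold and 68.5-fold lower in males (adjusted p of edgeR's test 3.33e-06 and 0.000157). On chromosome 6, the sites at 621468 and 622180 had 0 counts in all males and averaged 14.5 ± 5.45 and 13.5 ± 8.23 CPM in females (SD, n = 6). The sites at 521502 and 522182 on the same chromosome had 0 counts in all males and averaged 28.6 ± 12.8 and 5.34 ± 2.45 CPM in females. The floors of these 4 sites gave folds of at least 66.7, 58.2, 120 and 28.4.

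The last of the 4 lay on chromosome 9. Its plus-strand site at 956981 had 0 counts in all males and 7.23, 14.8 and 48.3 CPM in females, at least 79.9-fold lower in males. Its minus-strand site at 957900 was at 0 in 5 males, at 2.26 CPM in male 3 and at 25.5, 39.8 and 50 CPM in females. The first 3 of the 4 pairs had counts in females alone, so the balance of their ends in males could not be measured. In the last pair only 1 male had counts, all on the minus strand. Its log2 ratio differed by -2.07 ± 1.3 (SE) and did not pass (adjusted p of edgeR's test 0.205).

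The balance of plus to minus counts within each animal was tested by a side by sex term with a term for each animal, so that no scaling of the libraries moves it. It differed between the sexes in 90 of the 209 pairs or 43.1%, against 52.2% of the 1273 nearest pairs. The plus-to-minus ratio was higher in males in 41 pairs, against 22.5% of the 1273, and lower in males in 49, against 29.7%. Of the 90 pairs, 24 had ends called in opposite directions, 47 had 1 end called, 10 had both ends called in the same direction and 9 had neither. In 46 of the 90 the stronger end was a different one in males and in females. No like count over the 1273 stands beside it, so it cannot be read as a trait of the convergent pairs. Among overlapping pairs 33 of 99 differed and among facing pairs 57 of 110.

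Of the 2 pairs with the smallest adjusted p, 1 overlapped by 137 bases on chromosome 1. The plus-strand site at 178686844 had 315, 373 and 486 CPM in males against 28.9, 42.8 and 59.5 CPM in females. The minus-strand site at 178686707 had 10.3, 15.3 and 27.5 CPM in males against 70.5, 94.7 and 132 CPM in females. Neither strand had an overlap between the sexes, and the strands moved in opposite directions. The plus strand made up 93.1% to 97.3% of the pair's counts in each male and 23.1% to 45.8% in each female. The log2 ratio differed by 5.7 ± 0.64 (SE, adjusted p of edgeR's test 4.25e-06). The plus-strand cluster ran through the minus-strand position: it spanned 178686350 to 178687239, and the minus-strand cluster 178686656 to 178686863.

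The other lay on chromosome 8, where the plus-strand site at 95415014 and the minus-strand site at 95415090 faced each other over 76 bases. The plus-strand site had 31.7, 109 and 293 CPM in males against 3.82, 10.1 and 14.1 CPM in females. The minus-strand site had 0, 1.1 and 7.03 CPM in males against 85, 102 and 171 CPM in females. The plus share ran between 96.7% and 100% in males and between 3.57% and 12.9% in females, and the log2 ratio differed by 10.18 ± 1.15 (SE, adjusted p of edgeR's test 4.25e-06). On the same chromosome, the sites at 111507370 and 111507341 overlapped by 29 bases. The plus-strand site had 2.09, 55.8 and 253 CPM in males against 0, 0.0765 and 1.87 CPM in females. The minus-strand site had 0 counts in all males and 6.03, 29.9 and 46.1 CPM in females, at least 144-fold lower in males (adjusted p 4.69e-05). The plus share was 100% in every male and at most 5.56% in a female.

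The same swap in the other sense was seen on chromosome 6. The plus-strand site at 78492498 had 1 count in all males together and 4.93, 8.01 and 27.9 CPM in females, 199-fold more in females, between 35.5 and 7872 by counting error alone. The minus-strand site at 78493337, facing it over 839 bases, had 18.9, 47.4 and 74.8 CPM in males against 0, 0 and 2.59 CPM in females, a log2 difference of 6.42 ± 1.14 (SE, adjusted p of edgeR's test 0.000318). The highest plus share of a male was 0.344% and the lowest of a female 66.7%.

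On chromosome 4, the sites at 126238266 and 126238263 overlapped by 3 bases. The plus-strand site had 0, 0.704 and 1.05 CPM in males against 10.2, 17.4 and 26.7 CPM in females. The minus-strand site had 36.1, 84.7 and 156 CPM in males against 5.52, 18.1 and 23.6 CPM in females. Every female had both strands at 5.52 CPM or more, with plus shares between 30.2% and 78.2%, while no male had a plus share over 2.27%. The log2 ratio differed by -7.2 ± 0.95 (SE, adjusted p of edgeR's test 2e-05).

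**Figure D5:**
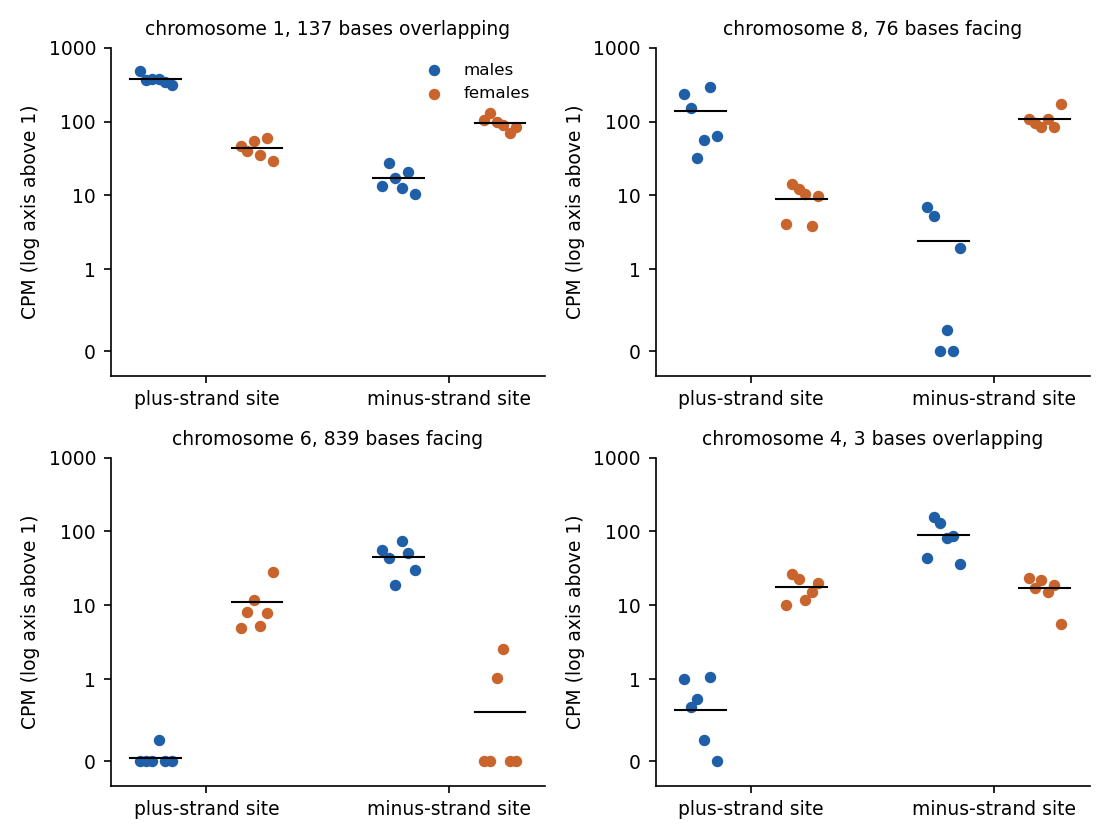
Levels per animal (CPM, linear under 1 and logarithmic above) at both sites of 4 pairs, males left of females, with lines at the means of 6 animals. The ratio of plus to minus was higher in males in the upper panels and lower in males in the lower ones, and the sexes do not overlap at any of the 8 sites. The pairs were chosen for the smallest p of the ratio test in each direction, which favours such separation.

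Other pairs kept 1 end in both sexes. On chromosome 5, the minus-strand site at 3925947 averaged 29.9 ± 10 CPM in males and 56.8 ± 34.6 CPM in females (SD, n = 6 each), and its log2 difference of -0.92 ± 0.41 (SE) did not pass (adjusted p of edgeR's test 0.0742). The plus-strand site at 3925875, facing it over 72 bases, had 15, 19.4 and 26.6 CPM in males against 0, 0 and 0.862 CPM in females (log2 6.6 ± 1.07, adjusted p 0.000163). On chromosome 7, the plus-strand site at 28692957 averaged 13.6 ± 11 CPM in males and 39.3 ± 13.1 CPM in females, and its minus-strand partner at 28692964 averaged 44 ± 14.2 CPM in males and 0.419 ± 0.886 CPM in females. On chromosome 10, the sites at 7102772 and 7103684 averaged 48.3 ± 14.6 and 38.8 ± 24.5 CPM in males, against 108 ± 32.6 and 1.81 ± 1.07 CPM in females. The log2 ratio differed by 8.01 ± 1.12, -9.8 ± 1.3 and -5.43 ± 0.85 in the 3 pairs (SE, adjusted p of edgeR's test 2.81e-05, 2e-05 and 7.58e-05). The call of the plus-strand site at 28692957 (log2 -1.51 ± 0.55, adjusted p 0.031) was lost in 4 of the 12 fits without 1 animal (female 5 and males 3, 5 and 6), with an adjusted p of 0.0524 at most.

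A further 2 pairs with ends called in opposite directions had the plus strand higher in males. The facing sites at 141268923 and 141269322 on chromosome 5, 399 bases apart, had 5.16, 15.3 and 57.3 CPM in males against 0 counts in all females on the plus strand, and 0, 0.98 and 9.43 CPM in males against 39.1, 80 and 112 CPM in females on the minus strand. The facing sites at 10301058 and 10301306 on chromosome 1, 248 bases apart, had 32, 92 and 117 CPM in males against 0, 3.9 and 6.29 CPM in females on the plus strand. The minus-strand site was at 0 in 5 males, at 2.09 CPM in male 5 and at 16.4, 18.6 and 60.1 CPM in females. Neither pair had an overlap between the sexes at either end.

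Start sites gave a readout that the pairing had not used. A start site on the same strand lay within 20000 bases upstream of 64.4% of the paired sites and of 60.4% of the other chromosome sites. The shares were 68.3% for paired plus-strand and 59.1% for paired minus-strand sites, against 60.8% and 60.2% for the others on each strand. Both ends had such a start in 37.4% of the pairs, and neither had one in 13%. The nearest start need not belong to the same transcript, and the animals are the same, so the values are only set side by side. In the start table, 3 of the 6 male columns could not be tied to a numbered animal.

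Among the pairs named for a sex difference, the nearest start of 1 end was itself tested and called at 3. The starts nearest to the minus-strand sites at 130739499 and 21254928 on chromosome 6 were tested and did not pass (adjusted p of edgeR's test 0.0835 and 0.202). Both of those poly(A) sites were called higher in males. On chromosome 4, the start 389 bases upstream of the minus-strand site at 126238263 averaged 156 ± 30.1 CPM in males and 19.7 ± 5.64 CPM in females (SD, n = 6 each), with an adjusted p of edgeR's test of 2.34e-07, higher in males as the poly(A) site was. On chromosome 5, the start 257 bases upstream of the minus-strand site at 141269322 averaged 0.441 ± 0.629 CPM in males and 22.8 ± 32 CPM in females (adjusted p 4.48e-05), lower in males as the poly(A) site was. The start 331 bases upstream of the minus-strand site at 3925947 on the same chromosome averaged 11.5 ± 7.28 CPM in males and 0.393 ± 0.281 CPM in females (adjusted p 2.06e-06). That poly(A) site went the other way, at 29.9 CPM in males and 56.8 CPM in females, and was not called in the main fit.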

How the data were processed

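Whole-body WTTS-seq libraries of 6 adult males and 6 adult females were compared, with WTSS-seq start sites beside them. The authors deposited counts, not normalized, per site cluster and library, with strand, position and bounds, per the file headers and the values. No source used here names the aligner, the clustering or the build. The deposited poly(A) table's total column sums to 108811465 counts against 45443280 in the 12 libraries, and its smallest value is 25, so sites below that are not analysed here. Columns of other libraries: 0. Libraries held 2304469 to 6624765 counts, and replicates are separate animals per the labels.

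Positions were shifted by 1. Each plus-strand site was paired with the nearest minus-strand site; ties (1 among convergent pairs) went to the site with more counts. The members and lists were chosen with earlier results of these data known. Counts were fitted over the whole table with edgeR 4.0.16 (R 4.3.3; quasi-likelihood test, TMM, filterByExpr, Benjamini-Hochberg at 0.05). Pair ratios were fitted over all 1273 tested nearest pairs with animal, side and side by sex terms. The SE given with a log2 difference is its absolute value divided by the square root of the test's F statistic. It is an approximation, least sure where a sex has few or no counts. On simulated data the site fit recovered 12.6% of 4-fold and 71.6% of 16-fold changes (14387 sites), and the pair fit 6% and 42% (1273 pairs), with 0 false calls. Few simulated sites were changed, in balanced directions and in libraries that needed little scaling beyond their totals. The 0 therefore does not measure false calls in these data. Values per animal were compared by exact permutation over all regroupings of the 12 animals. Floors are 3 counts over a group, and counting intervals are at 95%; both cover counting error only. Python 3.11.15, numpy 2.4.6, pandas 2.3.3, scipy 1.17.1, limma 3.58.1 and DESeq2 1.42.0 were used.

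Named pairs had both sites tested and were the 5 with the highest weaker side; the 4 with the largest smaller log2 difference among pairs higher at both ends in males, in females, and in opposite directions; the 4 with the smallest ratio p in each direction; the 3 longest overlaps and 3 shortest distances at 10 CPM or more on both sides; and, at the same level, the 3 pairs nearest the 1000 base limit on each side of it. A minus-strand site was used once per list, and 2 pairs tied with the shortest distances were added after their values were seen. The 2 most abundant members were added after their values were seen. Alternatives covered scaling, filters, tests, window, pairing, levels and each library left out. Leaving out the highest site of each strand and the comparison of partners of 1 minus-strand site were chosen after seeing the data. So were the TMM scale for the counts of pairs reaching 1 CPM together and the ratio calls in pairs overlapping by far bounds. The TMM scale for the share of pairs per animal was planned.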

Additional observations from a re-analysis of the deposited data

Results flagged for a closer look

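In 80 groups of 6 animals looked at, 19 had 1 animal apart from the others by Dixon's test. The groups did not take in every named pair. The pairs with the longest overlaps, where female 4 set the mean of a side, were not among them. A group at 0 in every animal can have none apart. For normally distributed values, chance gives that in about 1 group in 20. Several of the groups lie near 0 CPM, where such a distribution cannot be assumed, so the 19 are not shown to exceed chance. In 4 of the 19, 5 animals were at 0, so any count in the sixth sets it apart and that rate does not apply. No explanation was tested. Female 4 had both ends at 1 CPM or more in 20% of the pairs, above the other females.

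Among the pairs higher in males at both ends, male 2 stood apart at the plus-strand site at 44583099 on chromosome 2 with 30.7 CPM. Single females stood apart at the minus-strand site at 24842938 on chromosome 8 (female 3, 1.29 CPM), at the same plus-strand site (female 3, 0.775 CPM), at the minus-strand site at 130739499 on chromosome 6 (female 2, 3.26 CPM) and at the plus-strand site at 21254708 on chromosome 6 (female 1, 0.17 CPM).

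Among the pairs higher in females at both ends, female 2 stood apart at the minus-strand site at 108299 on chromosome 9 with 33.6 CPM. Male 3 did so at the minus-strand site at 957900 on chromosome 9 with 2.26 CPM, and female 4 at its partner at 956981 with 48.3 CPM.

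Among the pairs with ends called in opposite directions, female 1 stood apart at the plus-strand site at 111507370 on chromosome 8 with 1.87 CPM. At the plus-strand site at 78492498 on chromosome 6, male 4 stood apart with 0.258 CPM and female 6 with 27.9 CPM. Male 3 stood apart at the plus-strand site at 141268923 on chromosome 5 with 57.3 CPM. At the minus-strand site at 10301306 on chromosome 1, male 5 stood apart with 2.09 CPM and female 6 with 60.1 CPM.

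Among the remaining pairs whose ratio differed, male 1 stood apart at the plus-strand site at 178686844 on chromosome 1 with 486 CPM. Female 6 did so at the minus-strand site at 95415090 on chromosome 8 with 171 CPM, female 4 at the minus-strand site at 3925947 on chromosome 5 with 125 CPM, and female 1 at the minus-strand site at 28692964 on chromosome 7 with 2.21 CPM.

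Of the total counts that the deposited table gives for the paired sites, 57.3% lay outside the 12 libraries, against 56.3% for the other chromosome sites. These counts entered no comparison.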

How the results depend on the processing

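Of the results for sets of sites or pairs, 165 values under an alternative kept their direction and side of the threshold, or for counts stayed within 1.5 times, and 24 did not; a share of sites counted as moved when it left its binomial interval. For named sites and pairs, 774 values kept both, 16 lost a call, 5 gained one and 0 turned direction. With library totals alone, males were higher at 209 paired sites and females at 810, and both ends were higher in males in 3 pairs and in females in 47, with a shift of -1.23 on the log2 scale. Over all sites tested, males were then higher at 2643 and females at 7426. With no filter, all 7914 sites were tested, giving 1064 and 1523 sites, and 131, 228 and 227 pairs of 4586 with both ends higher in males, both in females and opposite ends. At a mean of 10 CPM, 7 of 104 pairs were higher in males at both ends, and the ratio was higher in males in 20 and lower in 21 of 91. Without each animal in turn, 1809 to 1929 paired sites passed the filter instead of 1689, and both sites did in 241 to 275 pairs instead of 209. Calls of sites and of both ends in these fits are thus not over the same members, while the ratios were fitted over the same 209 pairs. For the alternative fits other than library totals, no share over all sites or all nearest pairs stands beside the counts. Without each animal in turn, sites higher in males numbered 337 to 430 and in females 452 to 556. Pairs higher in males at both ends numbered 8 to 19 (19 without female 6), in females 18 to 30 (30 without male 1, 28 without male 3 and without male 6) and opposite 24 to 31, and ratios were higher in males in 36 to 42 and lower in 42 to 50. The differences per animal ran between -2.61 and -1.9 points for the share in paired sites, 6.62 and 8.97 for overlapping pairs, 0.475 and 1.38 for the overlapping partners, and -3.25 (without female 6, exact permutation p = 0.026) and -0.909 for pairs with both ends at 1 CPM. That last difference was -1.68 points at 5 CPM (exact permutation p = 0.00433) and reversed to 2.2 points on the TMM scale. The number of pairs was 2917 within 500 bases, 7293 within 2000 bases and 209 with both sites tested. The difference in the share in paired sites was -1.66 points within 500 bases (exact permutation p = 0.0108). It was -4.13 points within 2000 bases (exact permutation p = 0.00216). Starts lay upstream of 43.7% of paired sites within 5000 bases and of 76% within 50000. With the replicate number as a block, 332 and 428 sites, 11, 14 and 21 pairs, and 37 and 40 ratios were called, the plus-strand site at 130740112 on chromosome 6 lost its call (adjusted p 0.182, edgeR), and the pairing of numbers was not borne out, with correlations between -0.0785 and 0.114. The cause of these changes was not tested. Both sites had enough counts to be tested in 4.56% of the pairs.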
